A study of Mus musculus with 30 samples.

Results

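The response of B16F10 cells to interferon beta (IFNβ) was measured in 6 bulk RNA libraries, 3 from cells cultured for 24 h with IFNβ at 1000 U/mL and 3 from cells cultured for the same time with vehicle. B16F10 is a mouse melanoma line of C57BL/6 origin, and the source tissue is labelled as tumor although the cells were treated in culture. The 6 libraries belong to a series of 30 samples, of which 24 are bulk libraries. Every gene that summed to 10 reads or more in the 12 B16F10 libraries was taken, which left 18584 of the 49315 genes in the files. The other groups used were B16F10 cells given IFNγ at 100 ng/mL or a STING agonist at 225 μg/mL for 24 h, and the 6694c2 line. This mouse pancreatic ductal adenocarcinoma (PDAC) line was given vehicle, IFNβ, IFNγ or the STING agonist at the same doses and time. The STING agonist libraries of both lines and the IFNγ libraries of 6694c2 had no comparison of their own. They entered the minimum of reads, the scaling and the estimate of the spread between replicates. Those of 6694c2 also helped to pick genes left out in alternatives. Each group held 3 libraries of polyA RNA, and the composition of the vehicle is not given in the sources used here. The sources do not say whether the 3 libraries of a group came from separate cultures, so p-values measure the spread between these libraries, which may be technical.

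IFNβ is a type I interferon. It binds a receptor made of IFNAR1 and IFNAR2, whose kinases JAK1 and TYK2 activate STAT proteins, and these join IRF9 in a complex (ISGF3) that binds the interferon-stimulated response element (ISRE) in the promoters of interferon-stimulated genes (ISGs). IFNγ uses another receptor and mainly pairs of STAT proteins that bind the gamma-activated site (GAS). ISGs encode sensors of foreign nucleic acid, proteins that block viral replication, and the machinery that loads peptides on MHC class I, and in melanoma cells type I interferon is known for raising antigen presentation and for slowing growth.

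Between 19688783 and 24019834 reads per vehicle library and between 22411582 and 23577050 per IFNβ library were counted on genes. Pairs of replicates correlated at r = 0.988 to 0.991 across genes on the log2 scale, no 2 libraries held identical counts, and every pair differed by more than sampling noise. Levels are given as CPM, a gene's reads scaled to the TMM-normalized library size, and 3 values in a row are those of replicates 1, 2 and 3. Differences are log2 fold changes with their standard error from edgeR's quasi-likelihood fit, and a gene is called where its Benjamini-Hochberg adjusted p over all genes tested was under 0.05. Transcripts typical of 6694c2 were present at trace level in the B16F10 libraries. Over 182 genes with at least 50 CPM in 6694c2 vehicle cells and under 2% of that level in B16F10 cells, the median level was 0.166%, 0.253% and 0.242% of that in 6694c2 in the vehicle libraries and 0.617%, 0.41% and 0.22% in the IFNβ libraries, so that IFNβ replicates 1 and 2 stood above the other libraries.

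With IFNβ, 2622 genes were higher, which is 14.1% of those tested, and 2330 genes, or 12.5%, were lower. The counts per list below are to be read against these shares over all genes. Most of these differences were small, since 2109 of the higher genes and 2217 of the lower ones moved by less than 2-fold. More of the large changes were rises. The genes called over 2-fold higher numbered 513 (2.76% of those tested) against 113 over 2-fold lower (0.608%). By fitted fold, 71 genes rose by 8- to 16-fold, 53 by 16- to 32-fold, 25 by 32- to 64-fold and 16 by more, while 12 genes fell by 4- to 8-fold, 4 by 8- to 16-fold, 10 by 16- to 32-fold and 2 by 32- to 64-fold. The fold of a gene with no reads in a group depends on a prior count. All 12 genes over 16-fold lower had no reads in the 3 IFNβ libraries and at most 0.418 CPM in a vehicle library, and 27 of the 94 genes over 16-fold higher had none in the 3 vehicle libraries. The median log2 fold change over all genes tested was 0.034, and 0.018 with RLE in place of TMM scaling. The 513 genes together took 0.701%, 0.746% and 0.748% of the reads in the vehicle libraries and 4.46%, 4.41% and 4.46% in the IFNβ libraries. These genes were chosen for being higher in the same libraries, so the direction of this difference was fixed by the choice.

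**Figure D1:**
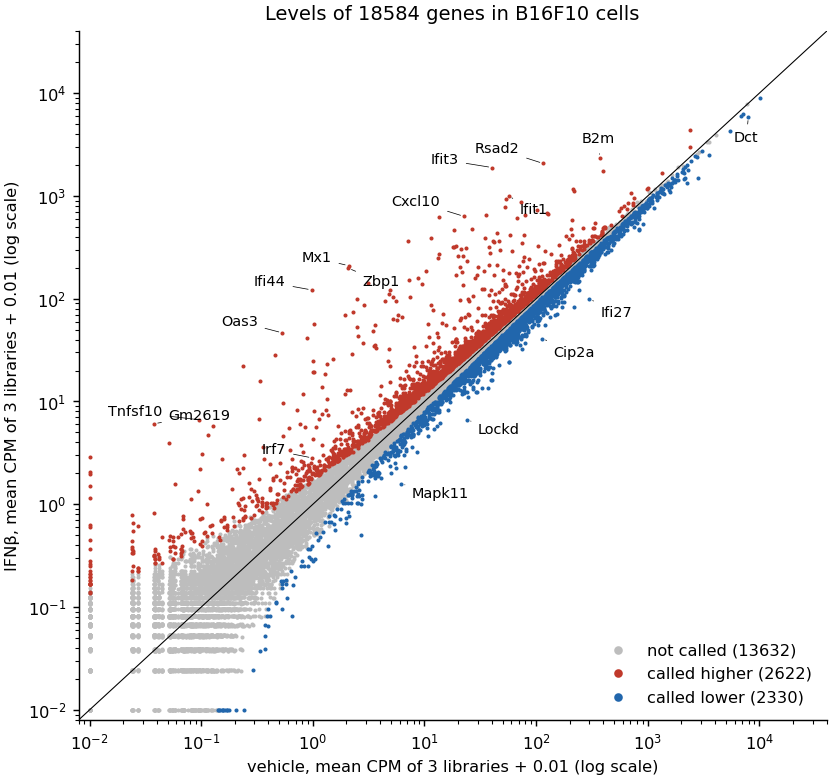
Mean level of each of the 18584 genes with vehicle (x axis) and with IFNβ (y axis), in CPM plus 0.01 on log scales, with genes called higher in red, genes called lower in blue and the line of equal levels in black. Rsad2, Ifit3, Mx1 and Zbp1 lie far above the line, while 2217 of the 2330 lower genes are within 2-fold of it, with Ifi27 and Cip2a farther below.

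The ISRE was searched in the promoters as the letters GAAA, any 2 bases and GAAA, and the GAS as TTC, any 3 bases and GAA, on both strands of windows from 250 bases before to 50 bases after the start, from RefSeq on GRCm38.p6. Of the genes tested, 12175 had such a sequence, and an ISRE match was found in 468 of them (3.84%) and a GAS match in 1019 (8.37%). Among genes called over 8-fold higher with IFNβ, 45 of 102 (44.1%) had an ISRE match. The share was 34.6% (27 of 78) for genes 4- to 8-fold higher, 13.1% (23 of 175) for those 2- to 4-fold higher and 4.28% for those up to 2-fold higher, against 2.98% of genes that were not called and 1.61% (1 of 62) of genes over 2-fold lower. The share was thus higher in each bin of larger rise. GAS matches were less graded, at 16.7%, 14.1%, 14.9% and 8.92% over the same 4 bins of higher genes, and 7.84% of the genes over 8-fold higher held both motifs, whose letters may overlap. These shares describe letters in a window and do not show binding.

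**Figure D2:**
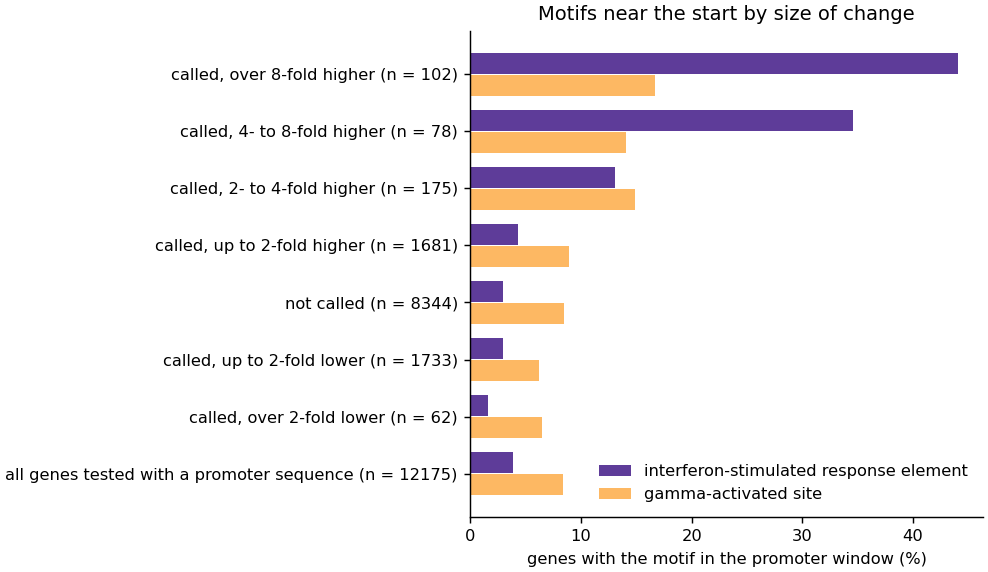
Share of genes with a match to the ISRE (purple) or the GAS (orange) in the promoter window, in percent of genes with a promoter sequence, by size and direction of the change with IFNβ. The ISRE share rises from 1.61% among genes over 2-fold lower to 44.1% among genes over 8-fold higher, while the GAS share stays between 6.23% and 16.7%.

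The 200 bases before the RefSeq start are shown for 7 genes that recur below, in falling order of their change with IFNβ, because they differ in the number and place of the matches. Letters in capitals are ISRE matches, except in Irf1, where they mark the GAS match, and none of the 7 stretches holds the other motif.
Oas3, chr5:120777660-120777859, minus strand: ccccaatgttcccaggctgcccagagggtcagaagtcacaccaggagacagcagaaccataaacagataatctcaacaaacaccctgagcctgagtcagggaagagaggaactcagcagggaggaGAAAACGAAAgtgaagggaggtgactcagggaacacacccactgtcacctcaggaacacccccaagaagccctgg
Rsad2, chr12:26456453-26456652, minus strand: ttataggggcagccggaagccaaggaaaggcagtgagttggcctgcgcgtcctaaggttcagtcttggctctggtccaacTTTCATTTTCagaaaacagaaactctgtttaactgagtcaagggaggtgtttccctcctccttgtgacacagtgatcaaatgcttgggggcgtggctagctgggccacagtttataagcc
Ifit1, chr19:34640689-34640888, plus strand: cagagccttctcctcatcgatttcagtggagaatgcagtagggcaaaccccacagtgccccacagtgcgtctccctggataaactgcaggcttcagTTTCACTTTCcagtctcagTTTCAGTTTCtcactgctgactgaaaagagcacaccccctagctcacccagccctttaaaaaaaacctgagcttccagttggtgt
Gbp2, chr3:142620463-142620662, plus strand: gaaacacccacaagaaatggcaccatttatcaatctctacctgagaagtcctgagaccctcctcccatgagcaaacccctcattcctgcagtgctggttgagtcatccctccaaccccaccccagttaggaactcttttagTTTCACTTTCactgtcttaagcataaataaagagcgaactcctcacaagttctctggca
Isg15, chr4:156200819-156201018, minus strand: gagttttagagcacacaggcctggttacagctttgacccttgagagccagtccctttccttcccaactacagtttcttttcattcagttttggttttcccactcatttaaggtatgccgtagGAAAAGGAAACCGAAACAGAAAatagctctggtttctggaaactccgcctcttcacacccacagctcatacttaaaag
B2m, chr2:122147487-122147686, plus strand: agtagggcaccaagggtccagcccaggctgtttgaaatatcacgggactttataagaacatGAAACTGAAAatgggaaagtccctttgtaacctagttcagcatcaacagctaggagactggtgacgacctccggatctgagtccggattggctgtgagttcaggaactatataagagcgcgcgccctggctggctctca
Irf1, chr11:53769814-53770013, plus strand: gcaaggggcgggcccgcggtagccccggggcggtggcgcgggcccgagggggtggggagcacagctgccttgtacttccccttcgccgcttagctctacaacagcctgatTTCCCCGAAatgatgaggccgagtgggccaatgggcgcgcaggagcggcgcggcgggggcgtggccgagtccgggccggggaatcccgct
Oas3 has 1 ISRE match that starts 75 bases before that start, Rsad2 has 1 at 120 bases, Gbp2 1 at 59 bases and B2m 1 at 139 bases. Ifit1 has 2 matches, at 104 and 85 bases, and the Isg15 stretch has 3 that overlap in 1 run, at 78, 72 and 66 bases. Irf1 has no ISRE match and a GAS match at 90 bases. Of the listed genes with large rises, Cmpk2, Ube2l6, Oasl2, Ifi44, Tnfsf10, Cd274, H2-K1, Tap1 and Psmb9 have a promoter sequence with no ISRE match.

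Of the 7 genes for the receptor and its signal transducers, 5 were higher and none lower, with a median log2 fold change of 0.37. Stat2 and Irf9 encode parts of ISGF3. Stat2 stood at 7.497, 8.47 and 10.2 CPM with vehicle and 156, 153 and 162 CPM with IFNβ, a rise of 17.9-fold (log2 fold change 4.16 ± 0.079, edgeR adjusted p = 1.2e-33). Irf9 went from 46.7, 44.8 and 46.9 to 118, 112 and 115 CPM (log2 fold change 1.32 ± 0.061, edgeR adjusted p = 2.0e-20). The groups were far apart for both genes. The receptor chain Ifnar2 and the kinase Tyk2 rose slightly, by 0.36 ± 0.074 and 0.37 ± 0.080, while the other chain, Ifnar1, at 55.1, 57.9 and 60.04 against 51.5, 54.7 and 51.1 CPM, and the kinase Jak1, at 137, 149 and 145 against 163, 162 and 146 CPM, were not called. Of the other STAT genes, Stat3 rose (log2 fold change 0.77 ± 0.053, edgeR adjusted p = 5.6e-15), Stat5a was lower at 24.03, 28.9 and 27.03 against 19.8, 22.1 and 23.8 CPM, and Stat5b and Stat6 were not called. The Stat5a call was lost without vehicle replicate 2 and without IFNβ replicate 1.

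Of 8 feedback inhibitors, 4 were higher and none lower (median 0.21). Usp18, which removes ISG15 from proteins and holds the receptor in check, rose from 50.02, 52.3 and 60.1 to 936, 924 and 969 CPM (log2 fold change 4.12 ± 0.060, edgeR adjusted p = 7.5e-37). Socs1, an inhibitor of JAK kinases, was scarce in every library at 0.668, 1.07 and 1.21 CPM with vehicle and 4.500, 3.54 and 4.91 CPM with IFNβ, and rose by 2.097 ± 0.205 on the log2 scale. Socs3 changed less (4.62, 5.55 and 3.85 against 6.49, 6.84 and 6.56 CPM), and its call was lost without vehicle replicate 3. Cish, Socs2, Ptpn6 and Ptpn2 were not called.

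Of the 9 interferon regulatory factors, 6 were higher and none lower, with a median of 1.32. Irf1, whose promoter stretch above holds the GAS match, rose from 11.2, 15.4 and 12.8 to 39.03, 40.9 and 47.1 CPM (log2 fold change 1.68 ± 0.081, edgeR adjusted p = 6.8e-20), and Irf5 from 1.49, 0.8601 and 1.63 to 11.6, 10.6 and 9.38 CPM. Irf7, which in most cells amplifies the type I interferon response, stayed near the lower end of detection, at 0.616, 0.946 and 1.38 CPM with vehicle and 2.86, 2.502 and 3.08 CPM with IFNβ (log2 fold change 1.49 ± 0.36, edgeR adjusted p = 0.0013). The groups did not overlap, but in 6694c2 cells the same treatment brought Irf7 from 0.9499 ± 0.449 to 962 ± 58.6 CPM. The IFNβ level in B16F10 was 0.293% of that in 6694c2, within the range of the trace of 6694c2-typical transcripts given above, whose part in this rise was not tested. Irf2 rose by 0.73 ± 0.085, and Irf3 and Irf8 were not called.

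**Figure D3:**
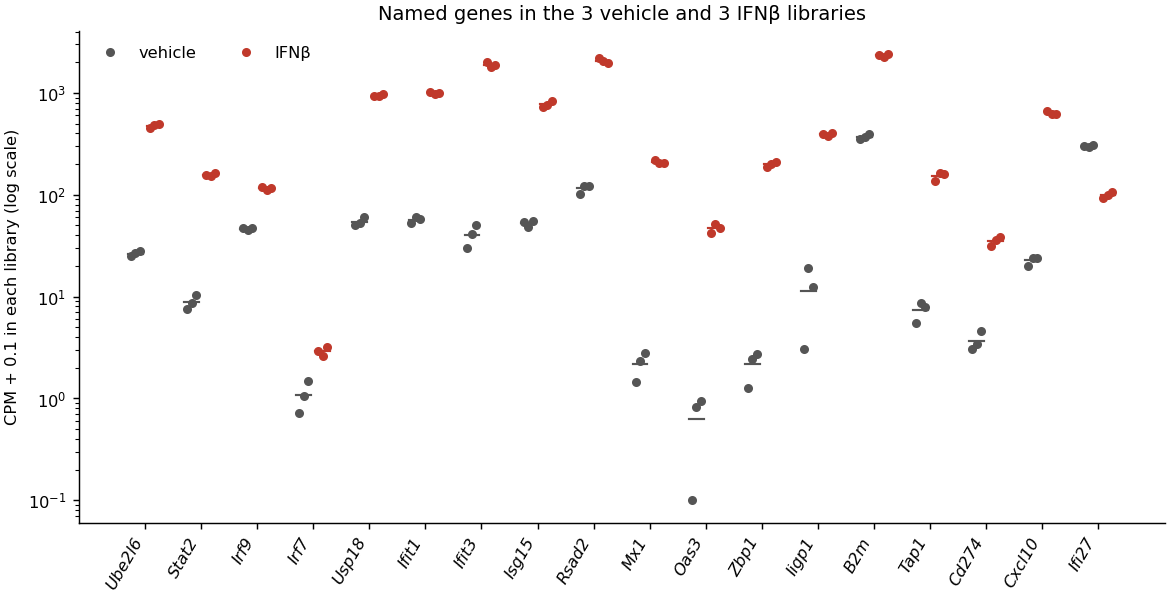
Level of 18 genes in each of the 3 vehicle libraries (grey) and 3 IFNβ libraries (red), in CPM plus 0.1 on a log scale, with a bar at each group mean. The groups are apart for every gene shown, from Irf7 at under 4 CPM to Rsad2 at 1982 to 2182 CPM with IFNβ, and Ifi27 is the only one of the 18 that is lower with IFNβ.

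Sensors of foreign nucleic acid rose as a group. Of 8 genes for cytosolic RNA sensing, 7 were higher and none lower (median 2.64). Zbp1, a sensor of Z-form nucleic acid, rose from 1.18, 2.37 and 2.64 to 186, 198 and 211 CPM (log2 fold change 6.55 ± 0.102, edgeR adjusted p = 2.4e-36). Its vehicle levels were 0.285%, 0.572% and 0.637% of its level with IFNγ. The size of its fold rests on this small and uneven share, whose source was not tested. Dhx58 (LGP2) went from 12.1, 13.9 and 14.1 to 245, 266 and 305 CPM, and Ifih1 (MDA5) from 38.1, 40.04 and 37.1 to 294, 273 and 270.4 CPM. Ddx58 (RIG-I) was already at 74.3, 79.00 and 79.8 CPM with vehicle and reached 425, 418 and 405 CPM (log2 fold change 2.42 ± 0.054, edgeR adjusted p = 3.0e-31). Tlr3, which senses double-stranded RNA in endosomes, rose by 3.05 ± 0.081 and the kinase Eif2ak2 (PKR) by 1.62 ± 0.053. Mavs, the adaptor below RIG-I and MDA5, was at 49.97, 52.2 and 49.1 against 48.2, 54.6 and 49.02 CPM and was not called.

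Of 12 genes for cytosolic DNA sensing, 11 were higher and none lower (median 3.06). The rise was largest in the Ifi200 family of DNA-binding proteins. Ifi204 rose from 2.52, 3.31 and 3.47 to 155, 133 and 135 CPM (log2 fold change 5.49 ± 0.094, edgeR adjusted p = 5.0e-35), Ifi203 by 4.09 ± 0.096, Ifi211 by 5.32 ± 0.11 and Mndal by 4.23 ± 0.15. Genes of this family are closely related and share stretches of sequence, so reads may be split among them. Smaller changes were seen in the pathway's own enzymes and adaptors. Cgas, the sensor, went from 15.5, 13.1 and 14.6 to 26.9, 26.1 and 25.5 CPM (log2 fold change 0.86 ± 0.088, edgeR adjusted p = 3.9e-10), Tbk1 rose by 0.32 ± 0.071, and Tmem173 (STING) stood at 30.1, 31.4 and 31.2 against 37.1, 32.3 and 37.1 CPM. The Tmem173 call, at an adjusted p of 0.039 from edgeR, was lost in 9 of the 16 alternatives. Aim2 was not called, at under 3 CPM in every library.

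The effectors described next took a larger share of the reads with IFNβ. Summed over 8 lists (92 genes of the IFIT, oligoadenylate, ISG15, restriction factor, guanylate-binding protein, immunity-related GTPase, class I chain and class I loading lists), the share of all reads was 0.565%, 0.583% and 0.589% in the vehicle libraries and 2.67%, 2.6% and 2.67% in the IFNβ libraries, with means of 0.579% ± 0.013 and 2.65% ± 0.041 (SD, n = 3). All 3 IFNβ libraries lay above all 3 vehicle libraries, a 4.57-fold difference between the means. The lists were chosen with earlier results known, so no test is given for this sum. Per kilobase of the gene length given with the counts, levels with IFNβ were, for example, B2m at 2725 FPKM, Ifitm3 at 1659, Bst2 at 1303, Ifit3 at 1082 and Isg15 at 1023 FPKM.

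All 6 IFIT genes, whose products bind foreign RNA and block its translation, were higher (median 4.26). Ifit1 stood at 52.2, 59.9 and 58.3 CPM with vehicle and 1023, 969.8 and 997 CPM with IFNβ, a rise of 17.5-fold with the smallest p of the genes called higher (log2 fold change 4.13 ± 0.058, edgeR adjusted p = 5.6e-37). Ifit3 rose from 29.6, 41.5 and 50.04 to 1992, 1805 and 1867 CPM (log2 fold change 5.54 ± 0.095, edgeR adjusted p = 5.0e-35). The near-identical Ifit3b rose by 5.53 ± 0.082, and reads of this pair may be shared between them. Ifit2 was 11.9-fold higher. Ifit1bl1, at 0.952, 0.792 and 1.65 CPM with IFNβ, was at 1.0% of its level in 6694c2 cells given IFNβ, so its value lies close to the trace described above.

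Of 12 genes of the oligoadenylate synthetase list, 9 were higher and none lower (median 3.72, or 3.50 with Oas1f, which had no reads with vehicle, set at its lower bound). These enzymes make a messenger that starts the degradation of RNA. Oas3 had 0, 0.731 and 0.837 CPM with vehicle and 41.8, 50.99 and 46.8 CPM with IFNβ (log2 fold change 6.38 ± 0.21, edgeR adjusted p = 2.0e-25). This was 1 of the 10 largest rises among genes with at least 2 CPM in the higher group and no overlap of groups. Oasl2 went from 4.62, 8.17 and 8.66 to 365, 358 and 364 CPM, and Oas2 from 2.67, 1.98 and 2.22 to 72.96, 71.4 and 76.8 CPM. Oas1a, at 21.6, 22.7 and 26.99 against 294, 300.4 and 340.0 CPM, and Oas1g, which resembles it, rose by 3.71 ± 0.073 and 3.89 ± 0.083, with reads that may be shared. Oas1d, Oas1f and Oas1h had under 1 CPM in every library and were not called.

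All 6 genes of ISG15 conjugation were higher (median 3.73), which covers each step from the modifier to its removal. Isg15, the ubiquitin-like modifier, rose from 54.02, 48.1 and 55.1 to 724, 755 and 841 CPM (log2 fold change 3.88 ± 0.063, edgeR adjusted p = 1.0e-35). The E1 enzyme Uba7 rose by 3.57 ± 0.094, the E2 enzyme Ube2l6 went from 24.8, 26.8 and 27.7 to 455, 483 and 494 CPM (log2 fold change 4.17 ± 0.060, edgeR adjusted p = 7.1e-37), and the ligases Herc6 and Trim25 rose by 3.09 ± 0.066 and 1.63 ± 0.065.

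Of 15 restriction factors, 13 were higher and none lower (median 2.47). Mx1, a dynamin-like GTPase that traps viral particles, rose from 1.33, 2.24 and 2.68 to 219, 206 and 203 CPM (log2 fold change 6.62 ± 0.12, edgeR adjusted p = 2.2e-34), and Mx2 from 4.37, 4.64 and 4.18 to 101, 89.05 and 93.6 CPM. Rsad2 (viperin), which makes a chain-terminating nucleotide, went from 102, 123 and 123 to 2182, 2042 and 1982 CPM (log2 fold change 4.16 ± 0.063, edgeR adjusted p = 1.5e-36), and its neighbour on chromosome 12, the nucleotide kinase Cmpk2, from 31.5, 36.4 and 39.4 to 670.3, 658 and 625 CPM. Bst2 (tetherin) went from 216, 204 and 218 to 1091, 1140.0 and 1299 CPM and Ifitm3 from 212, 221 and 226 to 1042, 1114 and 1218 CPM, so both were well expressed before treatment. Rises were smaller for Samhd1 (1.56 ± 0.054), Adar (1.47 ± 0.058) and Zc3hav1 (1.11 ± 0.050). Apobec3 and Ifitm1 were not called, and the call of Ifitm2, at 127, 113 and 125 against 122, 139 and 148 CPM with overlapping groups, was lost in 7 alternatives.

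All 11 immunity-related GTPases were higher (median 4.12) and 8 of 11 guanylate-binding proteins (median 3.06, or 3.17 without Gbp8, which had at most 3 reads in each group). Both families attack the vacuoles of intracellular microbes. Iigp1 stood at 2.93, 18.8 and 12.3 CPM with vehicle and 394, 376 and 404 CPM with IFNβ (log2 fold change 5.07 ± 0.200, edgeR adjusted p = 8.2e-23), Igtp at 11.6, 21.8 and 22.2 against 458, 439 and 489 CPM, and Irgm1 at 72.1, 86.4 and 79.3 against 690.0, 658 and 616 CPM. Gbp2 rose from 9.91, 29.4 and 18.3 to 324, 326 and 323 CPM (log2 fold change 4.06 ± 0.15, edgeR adjusted p = 2.1e-23) and Gbp3 from 15.1, 19.5 and 19.3 to 334, 300.4 and 314 CPM. Vehicle replicate 1 was the lowest of the 3 vehicle libraries for each of Iigp1, Igtp, Gbp2 and Gbp3, and Tgtp1, at 1.03, 7.31 and 6.44 CPM, showed the same spread. Over 9 genes with at least 500 CPM with IFNγ and under 2% of that with vehicle, the vehicle libraries held a median of 0.113%, 0.637% and 0.412% of the IFNγ level, so the vehicle levels of these genes, and with them the size of their folds, rest on a small and uneven share of reads whose source was not tested. Gbp10, at 0.0513, 1.42 and 0.837 against 0.649, 0.917 and 1.39 CPM, was not called, and the near-identical Tgtp1 and Tgtp2 may share reads.

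All 6 genes of the list of PARPs and their partner Dtx3l were higher (median 3.06), led by Parp14 (log2 fold change 3.696 ± 0.075, edgeR adjusted p = 1.4e-32), and 13 of 14 TRIM genes (median 2.85), of which Trim30a rose from 19.6, 21.98 and 24.5 to 275, 258 and 245 CPM and Pml, the organizer of PML bodies, from 57.05, 58.6 and 54.2 to 167, 195 and 172 CPM. Trim12a, Trim12c and the Trim30 genes are close copies and may share reads. Of 6 Schlafen genes, Slfn8 (5.92 ± 0.18), Slfn9 (2.004 ± 0.066) and Slfn2 were higher. Slfn2, at 0.924, 2.02 and 1.63 against 3.33, 3.08 and 2.73 CPM, was at 1.52% of its level in 6694c2 cells given IFNβ. Outside these lists, Ifi44 rose from 0.359, 1.12 and 1.42 to 124, 119 and 122 CPM (log2 fold change 6.91 ± 0.14, edgeR adjusted p = 1.5e-32) and Ifi207 from 0, 0.516 and 0.167 to 22.6, 21.7 and 22.3 CPM. With vehicle, Ifi44 was at 0.628%, 1.95% and 2.48% and Slfn8 at 0.625%, 2.09% and 2.72% of their levels with IFNγ. The size of their folds rests on these small and uneven shares, whose source was not tested. The pseudogenes Gm2619 and Gm7609 had at most 3 reads over the vehicle libraries, and with IFNβ Gm2619 was at 6.45, 5.003 and 6.77 CPM and Gm7609 at 4.33, 3.71 and 3.86 CPM. Gm7592 and the gene ENSMUSG00000062783 had no reads with vehicle and 201 and 144 reads with IFNβ, which makes them at least 63.7-fold and 45.6-fold higher against a floor of 3 reads over the group.

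**Figure D4:**
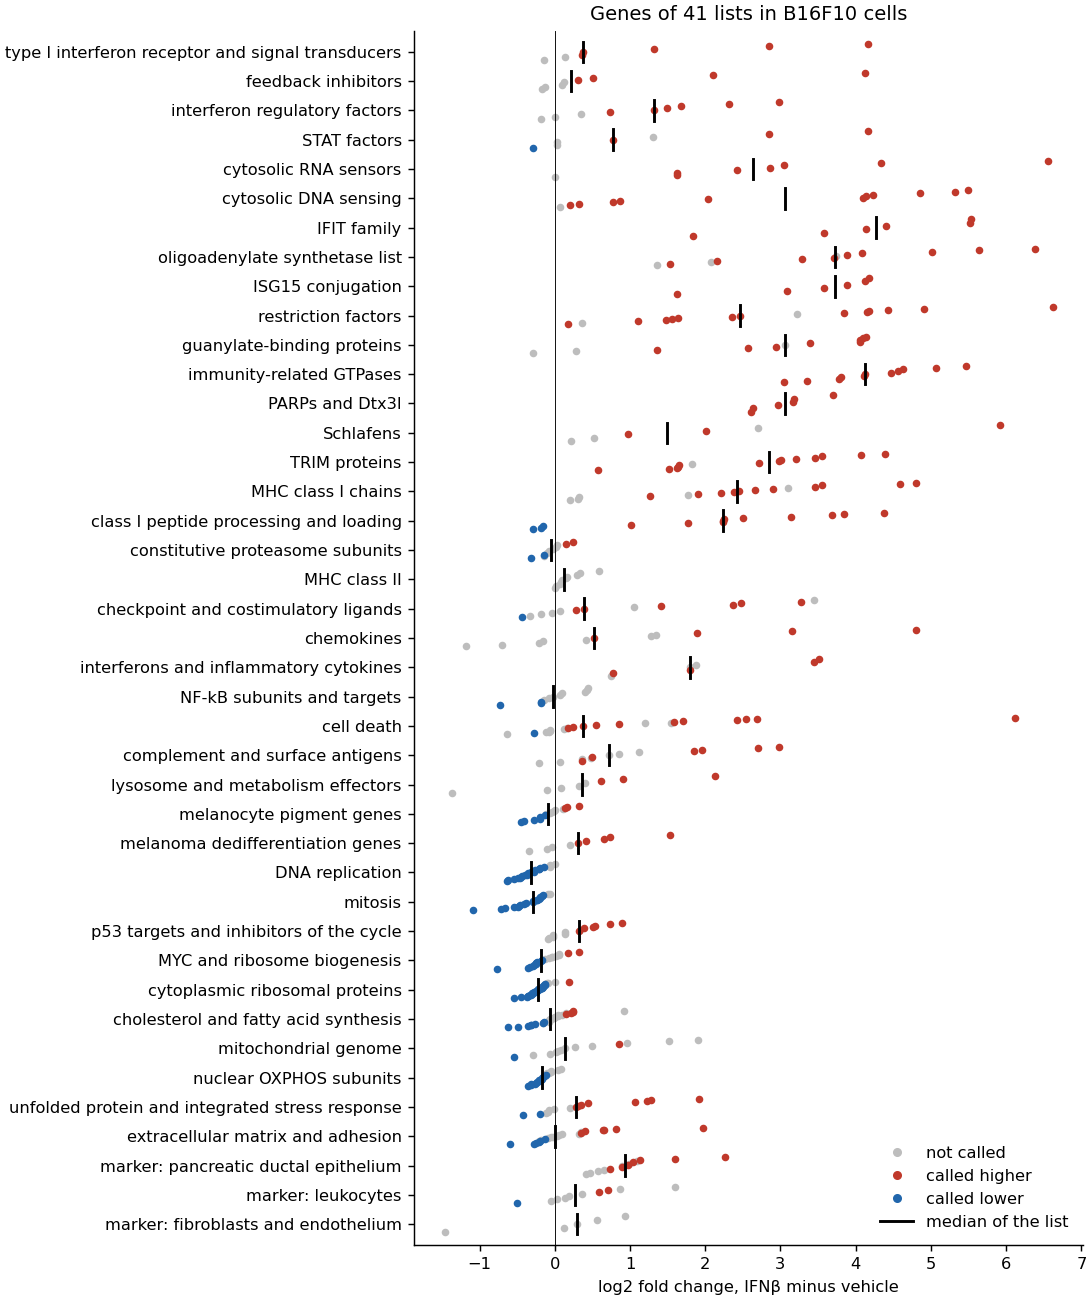
Log2 fold change with IFNβ of each tested gene in 41 lists (1 point per gene, red called higher, blue called lower, grey not called), with the median of each list as a black bar. The lists for sensors and effectors lie to the right, MHC class II and the NF-kB genes sit around 0, and the cell cycle, ribosomal protein and oxidative phosphorylation lists lie slightly to the left.

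Genes of antigen presentation on MHC class I were higher from the proteasome to the peptide complex, while the general chaperones Calr, Canx and Pdia3 were slightly lower. Of 16 genes for class I chains and their activator, 11 were higher and none lower (median 2.42, or 2.30 with H2-Q1, which had no reads with vehicle, at its bound). B2m, the light chain, went from 353, 371 and 391 to 2357, 2241 and 2432 CPM (log2 fold change 2.66 ± 0.050, edgeR adjusted p = 7.7e-34). Of the classical heavy chains, H2-D1 rose from 125, 119 and 131 to 588, 672 and 787 CPM (log2 fold change 2.45 ± 0.069, edgeR adjusted p = 6.3e-28), and H2-K1 from 7.81, 12.9 and 13.5 to 74.8, 82.4 and 101 CPM (log2 fold change 2.900 ± 0.12, edgeR adjusted p = 1.2e-22). Nlrc5, the transactivator of class I genes, rose from 0.359, 1.55 and 1.05 to 22.9, 27.1 and 24.1 CPM, and the nonclassical H2-T22 and H2-T23 rose by 3.46 ± 0.065 and 2.38 ± 0.13. With vehicle, Nlrc5 was at 0.381%, 1.64% and 1.11% of its level with IFNγ, a small and uneven share whose source was not tested. Class I genes are highly similar, and the levels of single genes are uncertain where reads match several.

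Of 13 genes for class I peptide processing and loading, 10 were higher and 3 lower (median 2.24). The peptide transporter Tap1 rose from 5.44, 8.601 and 7.78 to 137, 164 and 159 CPM (log2 fold change 4.38 ± 0.097, edgeR adjusted p = 1.9e-31) and Tap2 from 1.64, 2.67 and 2.43 to 27.8, 30.6 and 29.4 CPM. Of the immunoproteasome subunits, Psmb10 went from 39.3, 36.5 and 37.8 to 185, 221 and 237 CPM, Psmb9 from 1.03, 1.29 and 1.51 to 16.3, 19.4 and 19.97 CPM and Psmb8 from 1.13, 0.989 and 1.09 to 2.25, 2.21 and 1.997 CPM. With vehicle, Tap2 was at 0.824%, 1.34% and 1.22% and Psmb9 at 0.885%, 1.11% and 1.3% of their levels with IFNγ, small shares whose source was not tested. Tapbp (tapasin), Erap1, Psme1 and Psme2 rose by 3.14, 2.24, 2.23 and 2.24 on the log2 scale. The 3 lower genes were the general chaperones Calr, which went from 1210.0, 1164 and 1189 to 959, 971 and 978 CPM (log2 fold change -0.29 ± 0.044, edgeR adjusted p = 1.6e-06), Canx and Pdia3, and the Pdia3 call was lost without IFNβ replicate 2. The 10 constitutive proteasome subunits had a median of -0.05, with Psma5 and Psma4 higher and Psma1 and Psma7 lower. Of all genes tested, 14.1% were called higher and 12.5% lower. None of the 10 MHC class II genes was called (median 0.12). Cd74, the invariant chain, was at 10.4, 20.1 and 22.5 CPM with vehicle and 31.8, 19.01 and 15.1 CPM with IFNβ, and the class II transactivator Ciita at 0.205, 0.645 and 1.05 and 1.17, 0.625 and 0.391 CPM, with overlapping groups for both.

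Of 13 checkpoint and costimulatory ligands, 6 were higher and 1 lower (median 0.39, or 0.34 with Pdcd1lg2, which had no reads with vehicle, at its bound). Cd274 (PD-L1) rose from 2.93, 3.35 and 4.48 to 31.3, 36.1 and 38.1 CPM (log2 fold change 3.28 ± 0.11, edgeR adjusted p = 7.6e-25). Cd47, which restrains phagocytosis, went from 29.4, 28.2 and 27.6 to 160.1, 152 and 161 CPM (log2 fold change 2.47 ± 0.063, edgeR adjusted p = 2.3e-29), and Lgals9 (galectin-9) from 128 ± 1.79 to 663 ± 46.1 CPM (SD, n = 3) (log2 fold change 2.37 ± 0.055, edgeR adjusted p = 8.0e-31). All 3 genes had the groups far apart. Pvr, the ligand of TIGIT, rose slightly (0.39 ± 0.069), as did Cd276. Raet1e, a ligand of the activating receptor NKG2D, was lower (4.98, 4.56 and 5.36 against 3.16, 3.92 and 3.95 CPM), a call that was lost in 7 alternatives. Cd80 and Cd86 were below 1 CPM in every library.

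Of 11 chemokines and growth factors, 4 were higher and none lower (median 0.53). Cxcl10, which draws CXCR3-bearing T cells, rose from 19.98, 24.00 and 23.7 to 662, 619.6 and 617 CPM (log2 fold change 4.804 ± 0.074, edgeR adjusted p = 1.9e-36). Of the other ligands of that receptor, Cxcl11 had 3 reads over the vehicle libraries and 0.476, 0.417 and 0.434 CPM with IFNβ, and Cxcl9, at 0, 0.258 and 0.0837 against 0.173, 0.375 and 0.347 CPM, was not called. Csf1, the growth factor of macrophages, rose from 25.7, 27.4 and 22.8 to 95.9, 94.1 and 92.1 CPM (log2 fold change 1.895 ± 0.071, edgeR adjusted p = 1.2e-23), and Ccl5 from 11.7, 11.2 and 10.5 to 15.7, 15.8 and 16.4 CPM. Of 7 cytokine genes (median 1.79, or 1.83 without Il7, which was at the floor), Il18 (1.85, 2.75 and 2.13 against 8.48, 7.46 and 7.55 CPM), its inhibitor Il18bp (0.462, 1.25 and 0.418 against 7.53, 7.88 and 9.46 CPM), Il15 and Il6 were higher, each at under 10 CPM. Il15 lost its call in 2 alternatives. No NF-kB subunit or target of the 11 listed was higher, and Relb (-0.72 ± 0.14), Rela and Nfkb2 were lower (median -0.02).

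Of 21 genes of cell death, 11 were higher and 1 lower (median 0.37). Tnfsf10 (TRAIL), a death ligand, had 0, 0.129 and 0.126 CPM with vehicle and 7.66, 6.21 and 6.04 CPM with IFNβ, so it stayed scarce. Its rise was 1 of the 10 largest among genes with at least 2 CPM in the higher group and no overlap of groups (log2 fold change 6.12 ± 0.33, edgeR adjusted p = 2.6e-18). Xaf1, an antagonist of the caspase inhibitor XIAP, went from 29.9, 27.1 and 31.2 to 165, 172 and 178 CPM (log2 fold change 2.55 ± 0.062, edgeR adjusted p = 5.8e-30), and Mlkl, the executor of necroptosis, from 78.3, 77.9 and 78.8 to 256, 243 and 269 CPM (log2 fold change 1.71 ± 0.053, edgeR adjusted p = 3.1e-26). Its kinase Ripk3 was at 0.2 CPM or less in every library. Gsdmd, the pore-forming gasdermin, rose from 1.54, 1.12 and 1.21 to 7.01, 8.42 and 9.42 CPM. Of the 13 complement genes and surface antigens, 6 were higher and none lower (median 0.72). C2 went from 25.8, 28.99 and 26.6 to 100.4, 100.0 and 116 CPM, C1ra from 12.6, 12.9 and 13.1 to 43.6, 44.4 and 51.5 CPM and C4b from 0.668, 0.688 and 0.9205 to 5.45, 7.21 and 5.56 CPM, while Ly6e, at 1.695, 3.79 and 5.98 against 5.15, 4.75 and 2.39 CPM, and Ly6a were not called. Lgals3bp, a secreted glycoprotein, was abundant and rose from 386, 401 and 398 to 1601, 1739 and 1848 CPM (log2 fold change 2.13 ± 0.051, edgeR adjusted p = 2.1e-30).

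The line expressed melanocyte genes at high level, and several enzymes and structural proteins of pigment cells were slightly lower with IFNβ. Of 16 pigment genes tested, 7 were lower and 3 higher (median -0.09), and their share of all reads was 2.18%, 2.2% and 2.2% in the vehicle libraries and 1.83%, 1.84% and 1.94% in the IFNβ libraries. The groups did not overlap in this share. Dct went from 8022, 7783 and 8101 to 5485, 5654 and 6446 CPM (log2 fold change -0.44 ± 0.046, edgeR adjusted p = 5.6e-10), Slc45a2 from 895, 919.9 and 945 to 679, 678 and 726 CPM (log2 fold change -0.41 ± 0.047, edgeR adjusted p = 9.1e-09) and Tyrp1 from 6876, 6878 and 6746 to 6090.0, 5974 and 5865 CPM. Mlana, Tyr and Pmel were lower by less than 0.3 on the log2 scale. Mitf, the master regulator of these genes, was higher (297, 289 and 306 against 378, 384 and 355 CPM, log2 fold change 0.33 ± 0.053, edgeR adjusted p = 6.2e-06), as were Rab38 and Pax3, whose call was lost in 7 alternatives, and Sox10 was not called. Of 9 genes of dedifferentiated melanoma, 5 were higher and none lower (median 0.31). Axl, a receptor kinase of the dedifferentiated state, rose from 23.5, 23.1 and 22.5 to 68.5, 70.8 and 59.4 CPM (log2 fold change 1.53 ± 0.078, edgeR adjusted p = 5.4e-19), and Jun, Zeb2, Sox9 and Ngfr rose by 0.41, 0.31, 0.73 and 0.65, with overlapping groups for Ngfr.

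Genes of the cell cycle were lower by small amounts and in large numbers. Of 23 DNA replication genes, 19 were lower and none higher (median -0.31), and of 20 mitosis genes 18 were lower and none higher (median -0.29), against 12.5% of all genes called lower and a median of 0.034 over all genes. Rrm2, a subunit of ribonucleotide reductase, went from 617, 605 and 579 to 456, 411 and 414 CPM (log2 fold change -0.49 ± 0.051, edgeR adjusted p = 5.9e-10), Tyms from 94.7, 93.6 and 102 to 65.6, 68.5 and 65.6 CPM and Gins1 from 39.9, 31.7 and 35.2 to 23.2, 19.7 and 25.7 CPM. Ccnb2, cyclin B2, showed the largest drop of the mitosis list, from 118, 119 and 121 to 52.7, 55.1 and 59.9 CPM (log2 fold change -1.09 ± 0.058, edgeR adjusted p = 1.8e-18). Mki67 fell from 256, 259 and 199.9 to 118, 148 and 169 CPM and Cdc20 from 198, 185 and 171 to 105, 118 and 126 CPM. Cdk1, Plk1 and Aurka changed by -0.23, -0.22 and -0.17 on the log2 scale, and Top2a and Foxm1 were not called. Of 13 p53 targets and inhibitors of the cycle, 6 were higher and none lower (median 0.33). Cdkn1a (p21) was high in every library and went from 592, 575 and 577 to 691, 786 and 810.4 CPM (log2 fold change 0.39 ± 0.051, edgeR adjusted p = 1.2e-07), and Trp53inp1 and Sesn2 rose by 0.89 ± 0.070 and 0.74 ± 0.072, while Mdm2, Ccng1 and Phlda3 were not called. Fewer cycling cells and less of these transcripts in each cell cannot be told apart in bulk RNA.

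Myc went from 37.6, 33.7 and 30.8 to 18.2, 21.8 and 19.8 CPM (log2 fold change -0.77 ± 0.099, edgeR adjusted p = 7.8e-08). Of the 20 genes of MYC and ribosome biogenesis, 11 were lower and 2 higher (median -0.18), with Ncl, Fbl and Nolc1 lower and Polr1a higher. Of 30 cytoplasmic ribosomal proteins, 25 were lower and 1 higher (median -0.23), with Rpl4 at 1634, 1566 and 1597 against 1074, 1100.0 and 1118 CPM, and their share of reads went from 3.41% ± 0.11 to 2.99% ± 0.13 (SD, n = 3). Of 22 nuclear subunits of oxidative phosphorylation, 14 were lower and none higher (median -0.17). Both lists hold genes with short lengths, as given per gene with the counts (medians of 1782 and 2208 bases), and the change with IFNβ moved with this length across genes. Over 9712 genes, Spearman's rho of the log2 fold change with this gene length was 0.181. Of the 1944 shortest genes 620 were lower and 279 higher, against 275 and 518 of the 1943 longest. Length also separated single libraries from the vehicle mean, with rho from -0.191 to 0.285 over the vehicle libraries and from 0.004 to 0.244 over the IFNβ libraries. The part of length in the ribosomal and oxidative phosphorylation counts was not tested.

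Of 15 genes of the unfolded protein and integrated stress responses, 8 were higher and 2 lower (median 0.28). The largest rises were in Ddit3, Chac1, Atf3 and Trib3, which lie downstream of ATF4. Ddit3 (CHOP) rose from 32.2, 33.5 and 32.3 to 115, 119 and 135 CPM (log2 fold change 1.91 ± 0.069, edgeR adjusted p = 3.7e-24), Chac1 from 13.1 ± 1.79 to 31.7 ± 3.42 CPM (SD, n = 3) and Trib3 from 17.6, 17.2 and 20.8 to 36.7, 39.4 and 40.5 CPM, while Atf4 itself rose by 0.35 ± 0.052. The chaperone Hsp90b1 was lower (-0.42 ± 0.050), and Hspa5 (BiP) and Xbp1 were not called. Of 27 genes of cholesterol and fatty acid synthesis, 8 were lower and 4 higher (median -0.06), with Elovl6 (-0.62 ± 0.066) and Insig1 (-0.49 ± 0.056) at the low end and Hmgcs1 slightly higher. Of 22 genes of extracellular matrix and adhesion, 6 were higher and 6 lower (median 0.01). Over all genes tested, 14.1% were called higher and 12.5% lower. Thbs1 (thrombospondin 1) rose from 11.3, 10.7 and 10.8 to 49.8, 44.1 and 34.4 CPM, and Itga4, the alpha 4 integrin, fell from 87.7, 94.1 and 94.1 to 64.4, 65.8 and 52.4 CPM. Of the 13 mitochondrial genes, mt-Co1 was higher and mt-Cytb lower, and the robust fit made neither call.

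Ifi27, which interferon induces in many cells, was among the genes with at least 2 CPM that fell most. It was at 298, 293 and 310.5 CPM with vehicle and 92.8, 99.3 and 107 CPM with IFNβ, and the groups were far apart (log2 fold change -1.59 ± 0.056, edgeR adjusted p = 1.2e-24). Cip2a, an inhibitor of the phosphatase PP2A, fell from 117, 118 and 105 to 43.3, 41.03 and 38.7 CPM (log2 fold change -1.47 ± 0.066, edgeR adjusted p = 7.0e-21), Ss18l2 from 224, 202 and 223 to 84.6, 76.2 and 87.5 CPM and Magt1, a magnesium transporter, from 167, 177 and 173 to 82.6, 82.3 and 82.1 CPM. The ferritin heavy chain Fth1 and the metallothionein Mt1 changed by -0.74 ± 0.044 and -1.02 ± 0.059 on the log2 scale. The splicing factor Hnrnpa1 went from 864, 817 and 799 to 451, 465 and 469.9 CPM. Among genes with at least 2 CPM in the higher group, the largest drops were those of the long noncoding RNA Lockd (23.4, 24.5 and 24.5 against 6.27, 5.38 and 8.16 CPM), the kinase Mapk11 (6.88, 5.29 and 6.36 against 1.47, 1.38 and 1.87 CPM) and Rpph1, the RNA of RNase P (2.93, 2.45 and 2.68 against 0.519, 0.625 and 0.347 CPM), which is not polyadenylated and was counted here in polyA RNA. Matn3, 2010001A14Rik, Tmem204, Snord104 and the lipid transporter Abca12 completed the 10 largest drops among genes at that level with no overlap of groups. Their log2 fold changes were -1.60 to -1.43. Mrpl34 and Sptssa fell by 1.23 each on the log2 scale.

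IFNβ was next set directly against IFNγ in the same cells, to find which genes answer more to 1 of the 2 interferons at these doses. With IFNβ, 1311 genes were higher than with IFNγ (7.05% of those tested) and 1631 lower (8.78%). Each interferon was given at a single dose, in different units, so the doses are not matched, and the comparisons of each with vehicle share the vehicle libraries. Several antiviral families leaned to IFNβ, and others did not. Of the restriction factors, 12 of 15 were higher with IFNβ than with IFNγ and 1 lower, of the oligoadenylate genes 8 of 12 and none, of the IFIT genes 5 of 6 and none, and of the RNA sensors 6 of 8 and 1. The TRIM proteins had 6 of 14 higher and 2 lower, the ISG15 conjugation genes 4 of 6 and 2, the DNA sensing genes 5 of 12 and 3, and the Schlafens 1 of 6 and none, while of the 6 genes for PARPs and Dtx3l 1 was higher and 3 were lower (median -0.26). Mx1 was at 219, 206 and 203 CPM with IFNβ and 50.6, 58.8 and 48.3 CPM with IFNγ (log2 fold change 1.996 ± 0.079, edgeR adjusted p = 2.4e-22). Usp18 was at 936, 924 and 969 and 229, 233 and 232 CPM (log2 fold change 2.03 ± 0.054, edgeR adjusted p = 5.1e-28), and Lgals9 at 613, 672 and 704 and 149, 161 and 158 CPM (log2 fold change 2.09 ± 0.054, edgeR adjusted p = 2.1e-28). Rsad2 was 996 ± 47.3 CPM with IFNγ (SD, n = 3), against 2068 ± 103 CPM with IFNβ. The sensor Zbp1 (log2 fold change -1.06 ± 0.062, edgeR adjusted p = 6.2e-17) and Samhd1 (-0.75) were lower with IFNβ.

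The vacuole-attacking GTPases leaned to IFNγ. None of the 11 guanylate-binding proteins was higher with IFNβ and 10 were lower (median -3.92), and all 11 immunity-related GTPases were lower (median -3.26). Gbp2 was at 324, 326 and 323 CPM with IFNβ and 4534, 4269 and 4383 CPM with IFNγ (log2 fold change -3.76 ± 0.14, edgeR adjusted p = 2.2e-23). Iigp1 was at 394, 376 and 404 and 3112, 3039 and 2966 CPM (log2 fold change -2.96 ± 0.16, edgeR adjusted p = 8.4e-18). Gbp4 and Gbp10, at under 6 CPM with IFNβ, reached 647 ± 60.5 and 262 ± 37.4 CPM with IFNγ. Of the class I loading genes, 10 of 13 were lower with IFNβ and none higher (median -1.003), among them Tap2 (-2.77), Psmb9 (-2.64) and Tapbpl (-2.76). Of the 16 genes for class I chains and their activator, 5 were lower with IFNβ, 1 was higher and 10 were not called (median -0.14). B2m was at 2343 ± 96.3 CPM with IFNβ and 2416 ± 47.5 CPM with IFNγ, with no call (log2 fold change -0.044 ± 0.046, edgeR adjusted p = 0.63), H2-D1 was the one slightly higher with IFNβ, and H2-T23 was lower (log2 fold change -2.92 ± 0.092, edgeR adjusted p = 1.7e-25). Of the MHC class II genes, 7 of 10 were lower with IFNβ, and Ciita, at 1.17, 0.625 and 0.391 CPM with IFNβ, was at 9.94, 12.6 and 10.02 CPM with IFNγ. Irf1 differed most of the genes in the STAT, IRF and feedback lists, at 39.03, 40.9 and 47.1 CPM with IFNβ against 684, 701 and 663 CPM with IFNγ (log2 fold change -4.01 ± 0.071, edgeR adjusted p = 1.0e-33), followed by the feedback inhibitors Socs3 (-3.02) and Socs1 (-2.61). Cd274 was also lower with IFNβ, at 31.3, 36.1 and 38.1 against 100.0, 116 and 102 CPM (log2 fold change -1.59 ± 0.080, edgeR adjusted p = 5.6e-19), and 19 of 27 genes of cholesterol and fatty acid synthesis were lower with IFNβ and none higher.

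**Figure D5:**
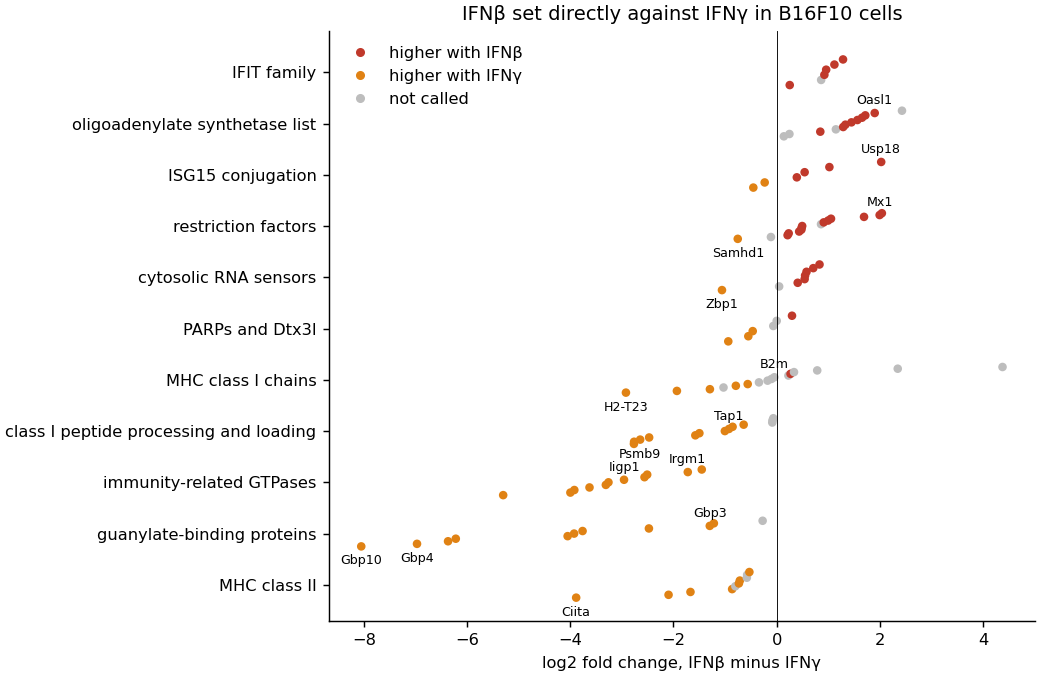
Log2 fold change between IFNβ and IFNγ for each tested gene of 11 lists (1 point per gene), with genes called higher with IFNβ in red, genes called higher with IFNγ in orange and genes not called in grey. IFIT, oligoadenylate and restriction factor genes lie mostly right of 0 and guanylate-binding proteins and immunity-related GTPases left of it, down to Gbp10 at -8.05.

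Of the genes that leaned most to IFNβ, Apod (apolipoprotein D) was at 94.8, 104 and 114 CPM with IFNβ, 16.4, 15.6 and 17.5 CPM with IFNγ and 5.19, 4.56 and 5.77 CPM with vehicle (log2 fold change 2.66 ± 0.085, edgeR adjusted p = 2.1e-25), and Plscr2, a phospholipid scramblase, at 55.2 ± 5.57 against 11.3 ± 2.63 CPM (SD, n = 3). Rab7b, a small GTPase of late endosomes, and Tenm4, a teneurin, were lower with IFNγ than with vehicle. Rab7b was at 7.39, 5.98 and 6.49 CPM with vehicle, 10.2, 11.8 and 11.6 with IFNβ and 1.21, 0.909 and 0.851 with IFNγ, and Tenm4 was at 17.2, 19.01 and 21.2 CPM with vehicle, 22.2, 31.4 and 22.2 with IFNβ and 3.86, 6.01 and 4.35 with IFNγ. At the other end, Slamf8 had no reads with vehicle or IFNβ and 5.09 ± 1.14 CPM with IFNγ. Apol6 was at 1.21, 1.63 and 1.17 CPM with IFNβ and 269, 305 and 251 CPM with IFNγ, and Gm12185 at 2.99, 2.83 and 2.48 and 277, 308 and 268 CPM.

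Last, the response was compared between lines through the interaction of line and IFNβ over the 24 bulk libraries, with 21138 genes tested. The effect was more positive in B16F10 than in 6694c2 for 1248 genes (5.9%) and less positive for 1303 (6.16%). This near-even split, at 48.9% more positive, stayed between 47.6% and 49.4% on leaving out single 6694c2 vehicle or IFNβ libraries. It fell to between 34.7% and 39.2% on leaving out any of the B16F10 vehicle or IFNβ libraries. The fewest genes were more positive without B16F10 vehicle replicate 1 (779 against 1469). On leaving out genes over 10 times higher in 1 line, the share was 39.2%. The 3 genes with the smallest p among those less responsive in B16F10 were Ifit1, Bst2 and Xaf1, and all 3 had a higher vehicle level there. Ifit1 was at 2.26 ± 0.229 CPM with vehicle and 962 ± 35.5 CPM with IFNβ in 6694c2 (SD, n = 3), against 56.8 ± 4.05 and 996 ± 26.5 CPM in B16F10, so the lines ended at similar levels from different starts (difference -4.61 ± 0.12 on the log2 scale, edgeR adjusted p = 4.6e-28). Bst2 went from 8.83 ± 1.12 to 837 ± 80.6 CPM in 6694c2 (difference -4.11 ± 0.12 on the log2 scale, edgeR adjusted p = 9.7e-27) and Xaf1 from 1.58 ± 0.528 to 364 ± 37.3 CPM (difference -5.29 ± 0.15 on the log2 scale, edgeR adjusted p = 9.7e-27). Rsad2 and Isg15 were likewise under 10 CPM in 6694c2 vehicle cells and at 116 ± 11.9 and 52.4 ± 3.800 CPM in B16F10 vehicle cells.

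The 3 genes with the smallest p among those more responsive in B16F10 were Ncoa7, Cd47 and Itm2b. Ncoa7, an ISG with a role in endosomes, rose from 23.5, 27.3 and 23.3 to 107, 96.5 and 95.9 CPM in B16F10 and was at 28.6 ± 4.12 and 25.8 ± 1.39 CPM in 6694c2 (difference 2.15 ± 0.12 on the log2 scale, edgeR adjusted p = 4.2e-17). Cd47 rose from 184 ± 9.800 to 379 ± 21.1 CPM in 6694c2, less than in B16F10 (difference 1.43 ± 0.085 on the log2 scale, edgeR adjusted p = 1.5e-16), and Itm2b, an integral membrane protein, from 681 ± 19.2 to 862 ± 37.1 CPM, against 197, 209 and 219 to 576, 567 and 624 CPM in B16F10 (difference 1.15 ± 0.080 on the log2 scale, edgeR adjusted p = 1.6e-14). Contrasts in the other direction included Irf7 (difference -8.501 ± 0.52 on the log2 scale, edgeR adjusted p = 4.3e-16) and Ifi27, which rose in 6694c2 from 9.02 ± 2.02 to 31.2 ± 2.15 CPM while it fell in B16F10 (difference -3.39 ± 0.12 on the log2 scale, edgeR adjusted p = 4.4e-24). Ly6e, Ly6a and Cfb, not called in B16F10, reached 1288 ± 109, 104 ± 11.8 and 112 ± 18.2 CPM with IFNβ in 6694c2, from 48.99 ± 1.81, 5.03 ± 0.763 and 6.39 ± 0.687 CPM.

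Markers of other cells were checked in the same libraries. Of 14 markers of pancreatic ductal epithelium, 7 were called higher with IFNβ and none lower (median 0.94), and 5 of those 7 had overlapping groups. Their summed share of reads was 0.00166% to 0.00237% in the vehicle libraries and 0.00627%, 0.00463% and 0.00212% in the IFNβ libraries. The 2 IFNβ libraries with the most 6694c2-typical transcripts held the most of these markers. Markers such as Krt8 can fall under the rule that picked the 6694c2-typical genes, so the 2 measures are not independent. Krt8 was at 5.803, 9.38 and 8.58 CPM with vehicle and 25.9, 16.7 and 6.599 CPM with IFNβ, which is 0.255% of its level in 6694c2 cells given IFNβ, and Krt18 and Krt19 were at 0.243% and 0.299%. The Krt8, Krt18 and Krt19 calls were lost with DESeq2 and with the robust fit, and those of Krt8 and Epcam without IFNβ replicate 1. Of all the listed or named genes called higher, 9 were at or under 2% of their level in 6694c2 cells given IFNβ, namely Irf7, Ifit1bl1, Slfn2, Cdh1, Krt7, Krt8, Krt18, Krt19 and Itga3. Markers of leukocytes summed to 0.00187% to 0.00355% of reads with vehicle and 0.00247% to 0.00428% with IFNβ, with Igkc and Ighm called higher and Lyz2 lower of 10 tested, and Cd3e, Cd4, Cd8a, Itgam, Itgax and Nkg7 under the minimum of reads, and none of the 5 fibroblast and endothelial markers was called.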

How the data were processed

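Bulk polyA RNA of the B16F10 and 6694c2 lines was sequenced as read pairs by a commercial service, and the authors trimmed reads with cutadapt, aligned them with STAR and counted them per gene with Rsubread. The values are the deposited counts of reads per gene, which were used without change. The genome build, strand setting and treatment of reads with several matches are not given in the sources used here for these counts, so copies of a gene may share reads and antisense partners cannot be told apart. Gene positions in the files matched those of GENCODE M21 on GRCm38 for 91.4% of genes, and 48970 of the 49315 identifiers had a symbol.

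Genes with at least 10 reads over the 12 B16F10 libraries were fitted with edgeR 4.0.16 (R 4.3.3), with TMM scaling, the 4 B16F10 treatments as group means and the quasi-likelihood test. IFNβ was compared with vehicle and with IFNγ. The interaction of line and IFNβ was fitted over the 24 bulk libraries. P-values were adjusted by Benjamini-Hochberg over all genes tested, and FPKM were computed here from the counts and the gene lengths in the file. A fold against a group with no reads was set against a floor of 3 counts over the group, which covers counting error only.

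The fit was tested on simulated counts with 200 changed genes per draw, where it recovered 91% to 97% of 2-fold and 99% to 100% of 4-fold changes for IFNβ against vehicle, with 14 to 20 false calls among 18139 to 18171 genes. The changed genes had a mean of at least 1 CPM, with rises and drops in equal number. The simulated counts held neither the trace of 6694c2 transcripts nor the trend with length. These rates therefore do not cover scarcer genes and do not give the error of the real calls. Deviations of vehicle and IFNβ libraries with the same replicate number correlated at -0.109, 0.138 and -0.024 over 10047 genes. Those with different numbers correlated at -0.182 to 0.165. These values gave no sign of pairing by number, but they cannot show whether such libraries were prepared together. Alternatives were DESeq2 1.42.0, RLE scaling, other filters, the replicate block, a robust fit and the compared groups alone. Others left out genes by how their levels in the lines compared, or left out each library. The genes and lists were chosen with earlier results of these data known. Besides the listed genes, those named for IFNβ against vehicle are, per direction, the 10 with the largest change and the 10 with the smallest p among genes called, with no overlap of groups and at least 2 CPM in the higher group, and likewise 5 against IFNγ and 3 for the interaction. Other genes are named where a result turns on them. Single-cell files of the series were not used here. Some members of the lists are counted with them but not reported here by name.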

Additional observations from a re-analysis of the deposited data

Results flagged for a closer look

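The results singled out here are differences between the lines in the response to IFNβ, tested as the interaction of line and treatment with edgeR over 21138 genes. The response was more positive in B16F10 than in 6694c2 for 1248 genes and less positive for 1303. Every difference below is B16F10 minus 6694c2 on the log2 scale.

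More positive responses in B16F10 were those of Ncoa7 at 2.15, Cd47 at 1.43 and Itm2b at 1.15. Less positive were Ifit1 at -4.61, Bst2 at -4.11 and Xaf1 at -5.29, each of which had a higher vehicle level in B16F10. Ifi27 differed by -3.39, with all 3 IFNβ libraries below all 3 vehicle libraries in B16F10 and a rise in 6694c2. Irf7 differed by -8.50, and its level with IFNβ in B16F10 was 0.293% of that in 6694c2.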

How the results depend on the processing

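The counts for IFNβ against vehicle ranged from 2119 to 2786 genes higher and from 1925 to 2527 lower over 16 alternatives, against 2622 and 2330. The share of calls that were higher was 52.9%, and 47.8% with DESeq2 and 49.1% with RLE scaling. The genes over 2-fold higher numbered 303 in place of 513 in an alternative that removed genes by their level in 6694c2. It left out genes over 10 times higher in 6694c2 cells with vehicle, IFNβ or IFNγ than in B16F10 vehicle cells. Genes that IFNβ raised in both lines, such as Ifit1 and Xaf1, were among those removed. The genes over 2-fold higher numbered 487 when, in an alternative chosen after seeing the data, only genes under 2% of their 6694c2 level were left out. On leaving out single libraries the interaction counts ranged from 779 to 1206 genes more positive in B16F10, with 779 without vehicle replicate 1 and 816 without IFNβ replicate 1, and from 1156 to 1770 less positive, and the cause was not tested. The interaction counts were 1532 and 1588 with DESeq2 and 1384 and 1472 with edgeR's own minimum of reads, against 1248 and 1303. IFNβ against IFNγ gave 987 to 1409 genes higher and 1301 to 1762 lower. The share of reads on effector lists with IFNβ stayed between 2.63% and 2.67%.

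With the replicate number as a block, 2671 genes were higher and 2412 lower than with vehicle, 1349 and 1680 differed from IFNγ, and 1272 and 1300 differed between lines. The sources do not state that libraries with the same number belong together.

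No gene named as called changed direction. Mavs (log2 fold change -0.053 to 0.039) and Gbp10 (-0.20 to 1.02), which were not called against vehicle under any setting that gave them a value, changed sign. Of the values of named genes against vehicle, 2923 kept their call, 53 lost it and 1 gained it (Jak1, without IFNβ replicate 3), and all 286 against IFNγ and all 148 for the interaction kept it. Counts per list stayed within 1.5 times in 1203 cases and moved further in 107. Calls were lost for, among others, Tmem173, Ifitm2, Raet1e, Pax3, Il15, Stat5a, Socs3 and Pdia3. The looser ISRE (GAAA, any 2 bases, GAA) was found in 48.0% of genes over 8-fold higher and 8.67% of all, and the stricter GAS (TTCC, any base, GGAA) in 4.9% and 1.55%.

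Each group held 3 libraries, for which 0.1 is the smallest exact permutation p, and genes under 1 CPM rest on few reads.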
